A study of Mus musculus with 11 samples.

Results

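Chromatin accessibility was followed at 10 long mouse genes: Lpp, Sox5, Pde4d, Inpp4b, Rad51b, Fars2, Rabgap1l, Sema6d, Wwox and Atxn1. They were chosen from these data because each had many open regions that were called only in the effector library, so that count is given as a description with no test. Overlapping peaks of the 11 libraries (minimum 1 bp) were joined into regions. Each region was given to the protein-coding gene whose span was closest, with a distance of 0 inside the span and a limit of 100 kb outside it. The 10 genes, of 21627 protein-coding genes in the table, received 724 of the 111041 regions.

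ATAC-seq, which reads out open chromatin through the cuts of a transposase, was run on mouse CD8 T cells carrying a YFP reporter of Tcf7, the gene of the naive and memory T cell factor TCF-1. Naive cells were YFP-positive splenocytes without CD44 and with CD62L, and antigen-experienced cells were YFP-positive splenocytes with both CD44 and CD62L. Effector cells had been activated outside the animal for 3 days. These reference groups had 1 library each, so differences between them have no replicate check. The other 8 libraries were made at day 9 from cells sorted by YFP at day 3 and cultured again. The 2 high_to_high libraries were YFP-high in both sorts and the 3 low_to_low libraries YFP-low in both. In the 3 low_to_high libraries, cells had been low in the first sort and were high in the second. Mouse strain, age, sex and the stimulus are not stated in the labels. Whether replicates are separate animals or separate cultures is not stated either, so a p-value here may reflect technical spread alone.

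Most open regions of a T cell lie away from gene starts, many of them within introns, where enhancers bind the factors that activation switches on. A long gene offers more such sequence than a short one, and a region inside a gene may act on that gene, on a neighbour or on none. The 10 genes do different work. Sox5 (a transcription factor of the SoxD family) and Atxn1 (ataxin-1, a partner of the repressor Capicua) act in the nucleus. Pde4d degrades the second messenger cyclic AMP, Inpp4b removes a phosphate from phosphoinositides made by PI3K, and Sema6d is a membrane semaphorin that binds plexin receptors. Lpp is a LIM-domain protein of cell adhesions, and Rabgap1l is a GTPase-activating protein for the Rab proteins of vesicle traffic. Rad51b acts in DNA repair by homologous recombination, Fars2 charges phenylalanine tRNA in mitochondria, and Wwox is an oxidoreductase whose gene lies across a common fragile site.

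On build mm10, the spans were chr16:24393350-24992578 for Lpp, chr6:143828425-144782287 for Sox5, chr13:108654177-109955969 for Pde4d, chr8:81342266-82134312 for Inpp4b and chr12:79297282-79848260 for Rad51b. They were chr13:36117428-36537595 for Fars2, chr1:160219174-160793476 for Rabgap1l, chr2:124089943-124667789 for Sema6d, chr8:114439635-115352712 for Wwox and chr13:45549755-45964991 for Atxn1. Exon and intron boundaries were not used here, so a region is placed only inside or outside a span.

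The sequences at the gene starts are shown because the starts differed from the effector-only regions: all 5 starts with a region were called in the naive library, and 3 of them had no effector peak. RefSeq (GRCm38.p6) gave a promoter for 8 of the 10 genes, all but Wwox and Atxn1, and the 250 bases before the first listed start are printed 5′ to 3′ for the 5 genes with a region there. Capitals mark matches to 6 motifs searched on both strands: AP-1 (TGANTCA), RUNX (TGTGGT), ETS (CGGAAG), NFAT (TGGAAA), TCF/LEF (CTTTGA) and T-box (AGGTGTGA). None of these words holds another. Of 32851 promoters of the same length, 6.75% held the AP-1 word, 14% RUNX, 13.6% ETS, 18.6% NFAT, 13.8% TCF/LEF and 1.12% T-box. A match is a description of the letters and not a binding site.
Fars2, chr13:36117393-36117642, plus strand: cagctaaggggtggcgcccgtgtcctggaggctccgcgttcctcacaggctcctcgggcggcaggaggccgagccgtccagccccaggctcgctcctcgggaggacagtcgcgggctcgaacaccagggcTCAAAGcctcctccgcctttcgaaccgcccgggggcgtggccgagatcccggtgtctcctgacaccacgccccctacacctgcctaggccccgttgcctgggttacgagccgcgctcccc
Rad51b, chr12:79297032-79297281, plus strand: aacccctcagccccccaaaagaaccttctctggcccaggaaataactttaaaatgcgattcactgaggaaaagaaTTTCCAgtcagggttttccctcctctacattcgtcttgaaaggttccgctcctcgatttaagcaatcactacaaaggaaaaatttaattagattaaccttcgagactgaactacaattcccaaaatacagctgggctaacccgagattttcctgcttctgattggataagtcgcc
Inpp4b, chr8:81342312-81342561, plus strand: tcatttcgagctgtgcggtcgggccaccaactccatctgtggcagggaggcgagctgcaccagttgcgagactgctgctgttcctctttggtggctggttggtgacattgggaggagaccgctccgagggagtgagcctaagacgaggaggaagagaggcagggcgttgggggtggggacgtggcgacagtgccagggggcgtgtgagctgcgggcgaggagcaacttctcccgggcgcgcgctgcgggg
Rabgap1l, chr1:160792939-160793188, minus strand: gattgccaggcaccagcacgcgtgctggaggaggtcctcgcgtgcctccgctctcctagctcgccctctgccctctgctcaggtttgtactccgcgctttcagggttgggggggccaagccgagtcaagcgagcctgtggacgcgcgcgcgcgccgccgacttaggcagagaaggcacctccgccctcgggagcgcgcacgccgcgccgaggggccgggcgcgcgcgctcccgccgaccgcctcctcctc
Lpp, chr16:24393100-24393349, plus strand: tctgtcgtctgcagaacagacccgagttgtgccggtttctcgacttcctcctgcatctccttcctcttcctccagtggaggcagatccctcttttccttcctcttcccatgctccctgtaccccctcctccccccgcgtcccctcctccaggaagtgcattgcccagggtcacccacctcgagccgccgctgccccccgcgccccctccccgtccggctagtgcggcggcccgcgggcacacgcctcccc

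In these windows the Fars2 promoter held 1 TCF/LEF word and the Rad51b promoter 1 NFAT word, both on the minus strand, and the Inpp4b, Rabgap1l and Lpp promoters held none of the 6. At the Fars2 start the normalized tag count (tags in the peak per 10 M tags of the library, M standing for 1e+06) was 70.2 in naive, 91.4 in antigen-experienced and 34.5 in effector cells. It was 41.4 and 37.7 in high_to_high, 55.3, 64.3 and 55.6 in low_to_low, and 48.5, 48.0 and 49.4 in low_to_high. At the Rad51b start it was 53.0, 49.9 and 27.9 in the 3 reference libraries and 23.0 to 42.8 at day 9. Both starts were thus open in all 11 libraries. The Inpp4b start was called in 10 libraries, at 15.9 in naive, 13.4 in antigen-experienced and 11 to 21.5 in day 9 cells, and not in the effector library. The Rabgap1l start was called in 7 libraries, at 28.9 in naive cells, 39.4 in antigen-experienced cells and 15.6 to 22.8 in 5 day 9 libraries, and again not in the effector library. At Lpp only the naive library had a peak, at 11.6. No region overlapped the promoters listed for Pde4d, Sox5 and Sema6d, or the second start listed for Lpp. A region missing from a list may lie below that list's threshold and is not known to be closed.

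Over all 11 libraries the effector list stood apart at these genes. It held 486 of their regions, against 256 in the naive and 216 in the antigen-experienced list. The day 9 lists held 190 and 270 in high_to_high, 235, 243 and 199 in low_to_low, and 215, 193 and 191 in low_to_high. In density, regions inside the spans came to 5.89 per 100 kb in effector cells, 3.28 in naive, 2.70 in antigen-experienced and 2.27 to 3.35 in day 9 cells. The 10 genes took 0.736% of all regions of the effector list and 0.395 to 0.453% of each of the other 10 lists. Sequencing depth was 53.2 M tags in the effector library and 20.8 to 59.97 M in the others, the deepest being high_to_high replicate 2 with 270 regions. With every list held to the highest of the 11 detection limits, a normalized tag count of 4.32, the effector share was 0.705% and the others were 0.395 to 0.431%. Other genes at least as long as Atxn1, the shortest of the 10 (313 genes, 235 with a region), likewise took 3.66% of the effector list and 2.11 to 2.55% of the others. The plot of counts by library shows the effector point above all other points at each of the 10 genes.

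**Figure D1:**
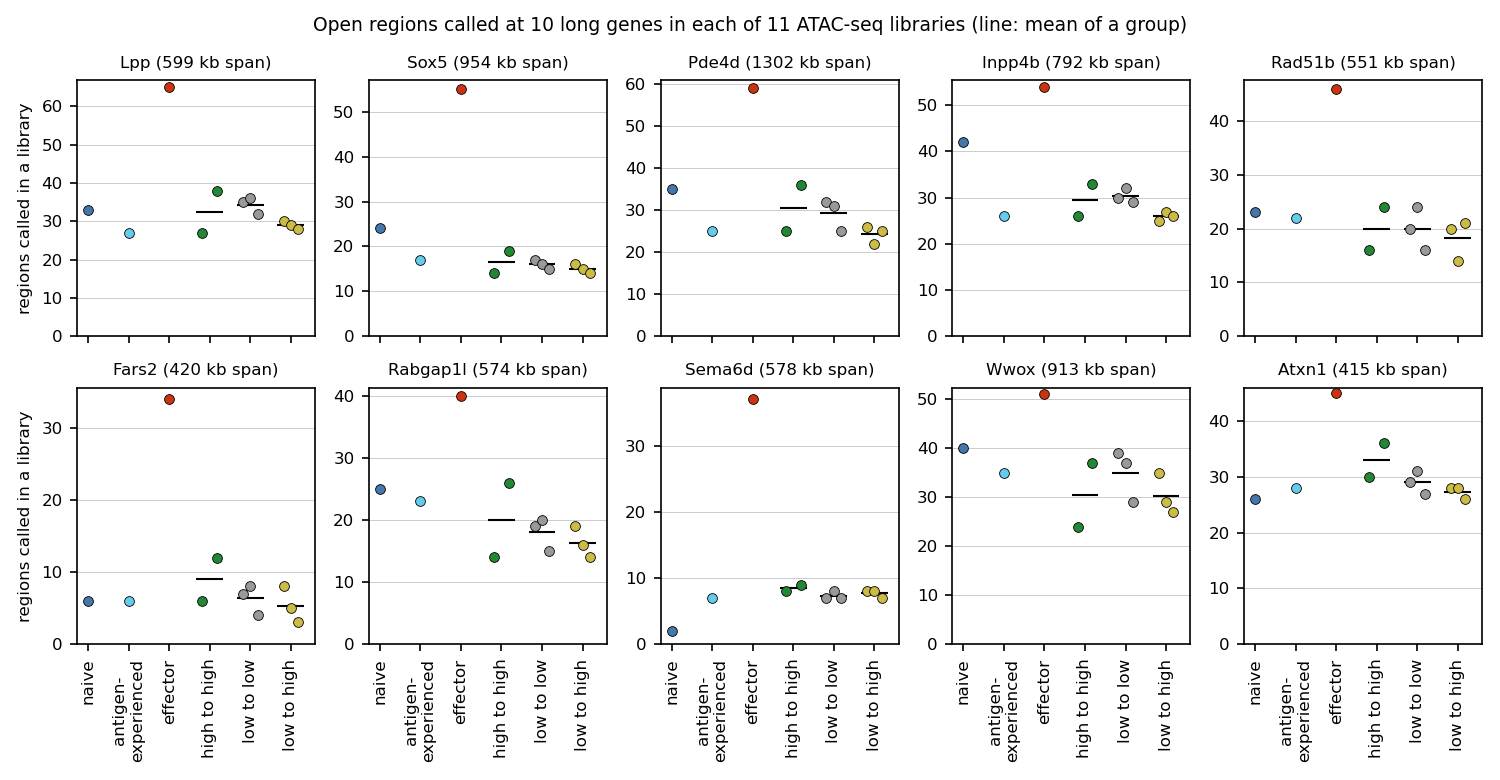
Number of open regions (vertical axis) called at each of the 10 genes in each library, by group (horizontal axis); points are libraries and lines are means of the day 9 groups. The effector library is the highest point in every panel, from 34 regions at Fars2 to 65 at Lpp. At day 9 the YFP-high and YFP-low libraries overlap in every panel. Some pairs of day 9 groups do not, as at Lpp, with 28 to 30 in low_to_high and 32 to 36 in low_to_low.

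Of the 724 regions, 325 (44.9%) were called in the effector library and in none of the other 10, compared with 23.4% of all 111041 regions and 38.8% of the 3672 regions of the other long genes. Since the genes were chosen on this count, the excess is not evidence of anything further. Only 67 (9.25%) were called in all 11 libraries, against 21.1% of all regions and 11.1% at the other long genes. A further 123 (17.0%) were called in splenocytes and at day 9 and not in effector cells, 68 (9.39%) only at day 9 and 47 (6.49%) only in splenocytes. Another 42 (5.80%) were called in effector and day 9 cells but in neither splenocyte list, near the 5.16% of all regions. Of the rest, 45 were called at all stages in some of the libraries and 7 in splenocytes and effector cells only.

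Among the nuclear factors, Sox5 had the highest effector-only count of any gene, 45 of its 77 regions, and Atxn1 the lowest of the 10, 23 of 68. Sox5 had 24 regions in naive, 17 in antigen-experienced, 55 in effector and 14 to 19 in day 9 cells. Atxn1 had 26, 28, 45 and 26 to 36 in the same order. The effector count was 2.29 times the naive count at Sox5 and 1.73 times at Atxn1.

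Among the signalling genes, the numbers ran from a gene with few regions outside effector cells to a gene with many. Sema6d had 2 regions in naive, 7 in antigen-experienced, 37 in effector and 7 to 9 in day 9 cells, and 30 of its 40 regions (75%) were effector-only. Inside the Sema6d span the naive list held 0 regions, the antigen-experienced list 2 and the effector list 26. Pde4d, the longest span at 1302 kb, had 35, 25, 59 and 22 to 36 regions and 34 of 84 were effector-only. Inpp4b had 42, 26, 54 and 25 to 33, with 34 of 94 effector-only. Thus the effector count was 18.5 times the naive count at Sema6d, 1.69 times at Pde4d and 1.29 times at Inpp4b.

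Of the adhesion and traffic genes, Lpp had 33, 27, 65 and 27 to 38 regions in naive, antigen-experienced, effector and day 9 cells. Its 44 effector-only regions of 97 ranked second among all genes. Rabgap1l had 25, 23, 40 and 14 to 26 regions, with 28 of 67 effector-only. Of the repair and metabolic genes, Rad51b had 23, 22, 46 and 14 to 24 regions, with 34 of 72 effector-only. Fars2 had 6, 6, 34 and 3 to 12, and 27 of its 43 regions (62.8%) were effector-only. Wwox had 40, 35, 51 and 24 to 39, and with 26 of 82 (31.7%) it had the lowest effector-only share of the 10.

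Counted inside the spans alone, effector-only regions were densest at Fars2 (5.71 per 100 kb), Lpp (5.67), Atxn1 (5.30) and Rad51b (5.08), and sparsest at Wwox (2.52) and Pde4d (2.23). The other genes at least as long as Atxn1 had a median of 0.178 per 100 kb and at most 4.79, at Kcnq5. Among somewhat shorter genes, Gnaq (6.25), Fggy (6.23) and Dip2c (5.86) were denser than any of the 10. By count, Sox5, Lpp, Pde4d, Rad51b, Inpp4b and Sema6d led all genes. No count separates the 10 from the rest: 11 genes outside the list had 23 or more, namely Cdkal1 and Zbtb20 with 28, Kcnq5 with 27, Arhgap26 with 25, Dip2c and Fggy with 24, and Atrnl1, Ebf1, Foxp1, Hdac9 and Maml3 with 23. These 11 are named because their counts were seen. Just below Atxn1 came Gmds and Gnaq with 22 and Dlg2 with 21. The median over the 16790 genes with a region was 1.

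**Figure D2:**
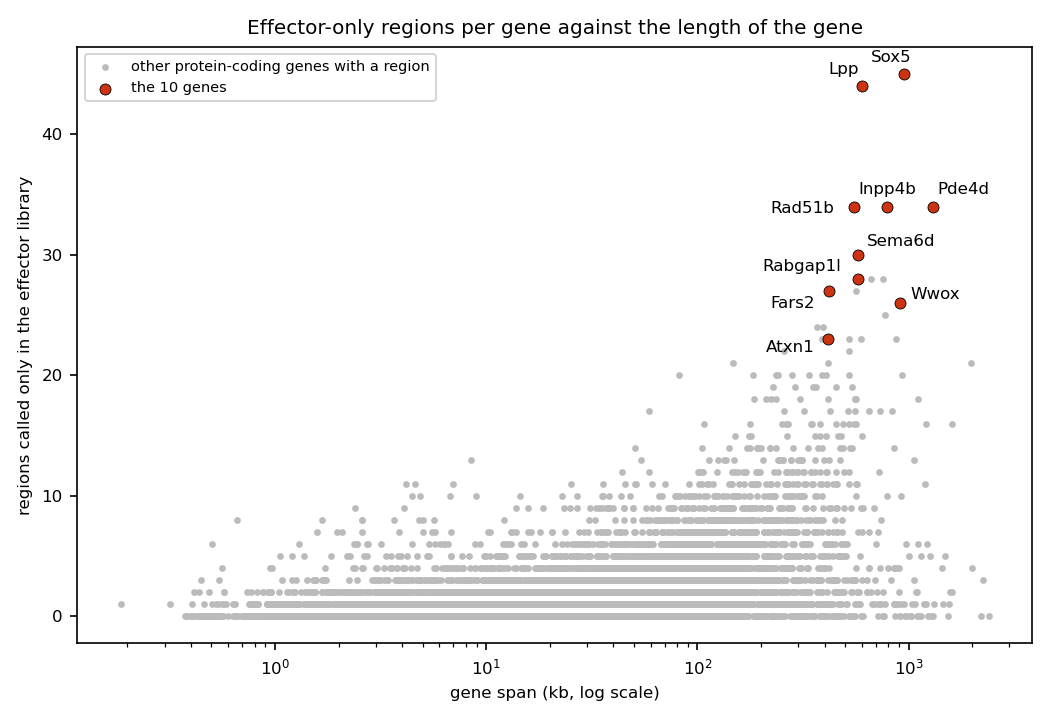
Regions called only in the effector library (vertical axis) against the length of the gene span in kb (horizontal axis, log scale), 1 point per protein-coding gene with a region. The 10 genes (red) lie at 23 to 45 regions and 415 to 1302 kb, and some of the other genes (grey) overlap them at 23 to 28.

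The effector-only regions were mostly weak but reached the level of shared regions. Their normalized tag count in the effector library had a median of 7.43 (range 2.91 to 43.0), against 7.05 over all effector-only regions and 5.64 at the other long genes. The 67 regions shared by all 11 libraries had an effector median of 17.3. At or above the common limit of 4.32 stood 263 of the 325 (80.9%), and 143 were at or above 8.64, which is 2 times that limit. The limit of 4.32 is the weakest listed peak of the shallowest library, and a region above it can still fail the local filter of a list, so these counts do not separate absent from unlisted regions. Atxn1 had the highest effector-only median of the 10 genes, 11.2, with all 23 regions at or above the limit, and Sema6d and Wwox the lowest, 5.46 each, with 18 of 30 and 17 of 26. The authors' caller removed peaks that did not exceed their surroundings by 4-fold. That step took 53.3% of putative peaks in the effector library and 36.4 to 49.9% in the others, and its part in the counts was not tested.

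**Figure D3:**
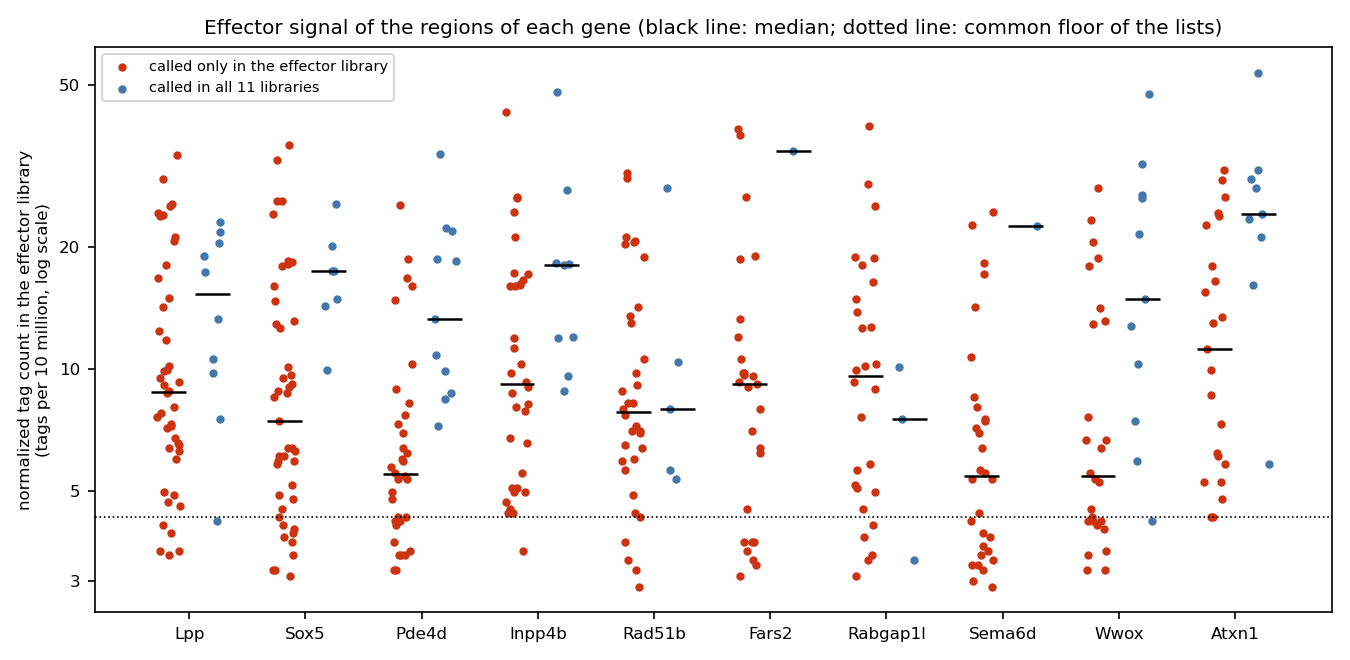
Normalized tag count in the effector library (vertical axis, log scale, tags per 10 M) of regions called only there (red) or in all 11 libraries (blue) at each gene (horizontal axis); points are regions, black lines medians, and the dotted line the common limit of 4.32. The red points run from 2.91 to 43.0 and most lie above the dotted line.

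The strongest effector-only region of the 10 genes was in Inpp4b, at chr8:81867123-81867295, with a normalized tag count of 43.0. It was followed by regions in Rabgap1l (chr1:160765715-160765887, 39.7), Fars2 (chr13:36534662-36534834, 39.1) and Sox5 (chr6:144672550-144672722, 35.7). All 4 were inside their spans. The strongest at Lpp (chr16:25011659-25011831, 33.7) was 19081 bp outside the span. Atxn1 reached 31.0 (chr13:45685832-45686004), Rad51b 30.4 (chr12:79393752-79393924) and Wwox 28 (chr8:115220898-115221070). Pde4d reached 25.4 (chr13:109204653-109204825) and Sema6d 24.4 (chr2:124430717-124430889). At Atxn1 and Sox5 these regions had close neighbours of another kind: the midpoint of a region called in splenocytes and at day 9, but not in effector cells, lay 0.416 kb away at Atxn1 and 1.42 kb away at Sox5. At Sema6d the nearest region of any other kind was 174.7 kb away.

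Effector-only regions lay inside the spans in 282 of 325 cases (86.8%), as did 59 of the 67 regions shared by all libraries (88.1%), while 55.5% of all effector-only regions were inside a span. Neighbouring effector-only regions of a gene had a median spacing of 13.4 kb, and shared regions 48.9 kb. Spacing is set in part by how many there are. For 177 of the 325, the nearest region of the same gene was another effector-only region, with 32 of 45 at Sox5 and 7 of 23 at Atxn1. Gene starts were rarely among them: 6 of the 325 (1.85%) were within 1 kb of a listed start, against 2.63% at the other long genes and 4.25% of all effector-only regions. Of the shared regions, 5 of 67 (7.46%) were that close, against 15.7% at the other long genes and 35.4% of all shared regions. No start was listed for Wwox or Atxn1, and the Sox5 start listed (chr6:143947106) lay inside the span. Regions of these genes stay in the counts, so a region at an unlisted start could be missed. In the map of positions, effector-only marks spread over the whole of Lpp, Fars2 and Atxn1. At Pde4d, with the span cut into 4 equal stretches by coordinate, 15 of the 29 inside it fell in the last stretch and 1 in the third. At Sox5, 18 of 42 fell in the last stretch. Regions of every kind were placed likewise, with 31 of 74 in the last stretch and 10 in the third at Pde4d, and 35 of 69 in the last at Sox5.

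**Figure D4:**
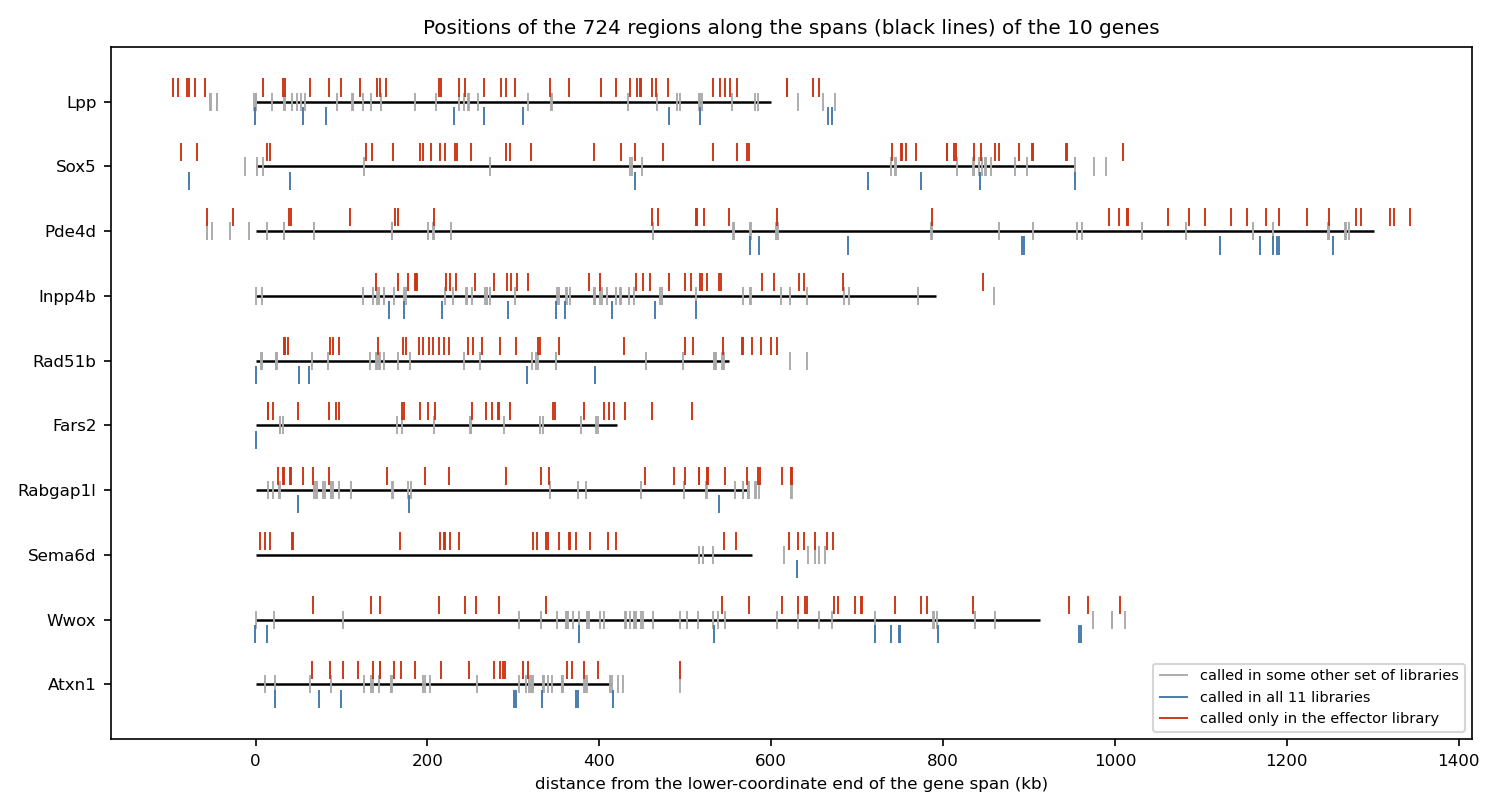
Positions of the regions of the 10 genes, in kb from the lower-coordinate end of each gene span (horizontal axis), with spans as black lines. Red marks are regions called only in the effector library, blue marks regions called in all 11 and grey marks the rest, and effector-only marks extend along the spans (282 of 325 inside them).

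The strongest region open in every library showed another order of levels at several genes, on values as deposited. Over all regions called in both libraries, effector values were lower by a median of -0.71 against naive cells on the log2(normalized tag count + 1) scale. Against antigen-experienced cells the median was -0.92. The values in this paragraph were not centred, so their orders between effector and splenocyte libraries include that shift. The strongest shared region of Pde4d, inside the span at chr13:109822450-109822626, stood at 117.5 in naive, 116.3 in antigen-experienced, 33.8 in effector and 55.7 to 73.3 in day 9 cells. That of Wwox, chr8:114439423-114439686, at the lower-coordinate end of its span, stood at 112.7, 123.1, 47.6 and 50.9 to 83.6. Both were lower in effector than in splenocyte and day 9 libraries. Sox5 had one at chr6:144670832-144671045 (73.0, 55.8, 25.5 and 47.9 to 66.2) with the same order. Atxn1 had one at chr13:45922629-45922851 (69.7, 82.4, 23.4 and 53.7 to 75.7), also lowest in effector cells. At Inpp4b, chr8:81497700-81498058 read 51.4, 85.0, 48.2 and 49.7 to 69.8. At Rabgap1l every day 9 value was above the reference values, and at Lpp every one but that of low_to_high 1. The Rabgap1l region, chr1:160397150-160397449, read 7.46, 9.59, 7.52 and 19.4 to 29.4. The Lpp region, chr16:24704319-24704593, read 11.9, 27.5, 23.0 and 27.0 to 40.5. The only shared region of Sema6d, chr2:124719916-124720372, was 52127 bp outside the span and read 8.39 in naive and 27.1 in antigen-experienced cells, 22.5 in effector and 17.2 to 29.4 in day 9 cells. Fars2 and Rad51b had their strongest shared region at the start described above. Naive windows were 132 bp wide and those of high_to_high replicate 2 were 136 bp, against 172 bp in the other 9 libraries.

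For regions called in both of a pair of reference libraries, differences of log2(normalized tag count + 1) were centred on the median of all regions called in both. The medians removed were -0.71 for effector against naive, -0.92 for effector against antigen-experienced and 0.16 for antigen-experienced against naive cells. Between effector and naive cells, 105 regions of the 10 genes were called in both, with a median difference of 0.49, and 26 were at least 2-fold higher and 9 at least 2-fold lower in effector cells. Over all 32333 such regions, 14.6% were 2-fold higher and 6.1% lower. Between effector and antigen-experienced cells, 108 were called in both, with a median of 0.46, 30 higher and 6 lower, against 12.5 and 5.21% of all. Both medians are smaller than the shift removed, so on the values as deposited the typical shared region of the 10 genes was lower in effector cells. The choice of genes used the effector library, so nothing further is read from these 2 comparisons, which share it. At Sema6d both regions shared with naive cells and 5 of the 6 shared with antigen-experienced cells were at least 2-fold higher in effector cells after centring.

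The comparison of antigen-experienced with naive cells did not involve the effector library. Of 183 regions of the 10 genes called in both, 10 were at least 2-fold higher in antigen-experienced cells and 5 at least 2-fold lower. Of the 44068 regions called in both over the genome, 3.69% were higher and 1.07% lower, 4.76% in either direction. With the common limit of 4.32 the counts were 5 higher and 5 lower, and inside the spans alone 6 and 5. The median difference was 0.01. The highest value was at Atxn1, in a region at chr13:45649259-45649537 inside the span, named here because its value was seen. Its normalized tag count was 3.46 in naive, 46.0 in antigen-experienced and 53.7 in effector cells, and 51.5 and 46.8 in high_to_high, 55.7, 65.5 and 65.3 in low_to_low, and 52.9, 65.4 and 53.5 in low_to_high. The naive library was thus the only one with a low value, and the centred difference of antigen-experienced from naive cells was 3.23 on the log2 scale. Both Sema6d regions called in the 2 lists were also at least 2-fold higher. The lowest value was at Wwox (chr8:114869355-114869540), 17.9 in naive and 5.11 in antigen-experienced cells, with no peak in the other 9 libraries. With 1 library a group, these differences compare libraries and not conditions.

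Few of the regions that effector cells had and splenocytes lacked were called again at day 9. Of 367 such regions of the 10 genes, 42 (11.4%) were called in at least 1 day 9 library and 7 (1.91%) in all 8. Over the genome these shares were 18.1% and 3.27%, and at the other long genes 13.6% and 2.30%. Because genes were chosen for regions absent at day 9, the lower share at the 10 genes follows in part from the choice. Those present in all 8 were 1 each at Sema6d, Inpp4b, Wwox, Fars2, Atxn1, Pde4d and Lpp. The Inpp4b region (chr8:81693211-81693490) read 12.9 in effector cells and 6.75 to 11.2 at day 9. The Fars2 region (chr13:36513117-36513431) read 16.3 in effector cells and 3.58 to 8.38 at day 9, and at Atxn1 (chr13:45971176-45971425) day 9 values, 8.33 to 16.3, were above the effector value of 6.67.

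Whether YFP state at day 9 went with accessibility at the 10 genes was tested, since the choice of genes did not use that contrast. The number of regions called did not separate the states: 211.8 ± 34.1 (SD, n = 5) in YFP-high libraries and 225.7 ± 23.4 (SD, n = 3) in YFP-low libraries, with overlapping values. None of the 345 regions called in a day 9 library was in all 5 YFP-high lists and no YFP-low list, or the reverse, against 0.0627% and 0.103% of all such regions. For the signal, limma was fitted to log2(normalized tag count + 1), centred on each library's median. The fit took the 34383 regions present in every one of the 8 day 9 lists. Of the 724 regions, 136 passed that filter: 23 at Wwox, 20 at Pde4d, 19 at Lpp, 18 each at Inpp4b and Atxn1, 11 at Sox5, 10 at Rad51b, 8 at Rabgap1l, 6 at Sema6d and 3 at Fars2. No effector-only region could pass it.

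Sox5 had the only region that passed the test. Region chr6:144541148-144541592, inside the span and called in all 11 libraries, read 13.4 and 12.8 in high_to_high, 11.7, 10.1 and 11.3 in low_to_high, and 6.02, 9.80 and 9.24 in low_to_low. Every YFP-high library was above every YFP-low library. The reference libraries, at 18.7 in naive, 15.6 in antigen-experienced and 14.9 in effector cells, were higher than all 8. For YFP-high against YFP-low the log2 difference was 0.70 (SE 0.16, limma adjusted p = 0.0420). For high_to_high, at 13.1 ± 0.424 (SD, n = 2), against low_to_low, at 8.35 ± 2.04 (SD, n = 3), it was 0.91 (SE 0.19, limma adjusted p = 0.0149). For low_to_high, at 11 ± 0.833 (SD, n = 3), against low_to_low it was 0.56 (SE 0.17, limma adjusted p = 0.553) and did not pass. Thus 1 of 136 regions was higher in YFP-high cells and 0 lower, against 0.329% of all 34383 higher and 0.332% in either direction. It was also 1 of 136 for high_to_high against low_to_low, against 0.558% of all higher and 0.596% in either direction. Those backgrounds themselves moved with single libraries. YFP-high against YFP-low gave 114 calls over all regions, but 45 without high_to_high 1, 62 without high_to_high 2, 203 without low_to_low 1, 16 without low_to_low 2, 61 without low_to_low 3 and 198 without low_to_high 2. For high_to_high against low_to_low 192 were higher and 13 lower, but 42 and 82 without high_to_high 1, 85 and 15 without high_to_high 2, 297 and 18 without low_to_low 1, and 68 and 2 without low_to_low 2. The Sox5 call also depended on single libraries: for YFP-high against YFP-low it was lost without any 1 of high_to_high 1 and 2, low_to_low 1, 2 and 3, and low_to_high 1 and 3 (limma adjusted p = 0.15, 0.12, 0.228, 0.211, 0.0513, 0.0518 and 0.0523). It held without low_to_high 2 (limma adjusted p = 0.0128). For high_to_high against low_to_low it was lost without high_to_high 1 or 2 (limma adjusted p = 0.117 and 0.0974) and without low_to_low 1 or 2 (limma adjusted p = 0.0609 and 0.0601).

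Centring mattered to the direction of the rest. Before it, the median log2 difference over all regions was -0.22 for YFP-high against YFP-low and -0.30 for high_to_high against low_to_low. On values as deposited 7 of the 136 regions of the 10 genes were called in the first comparison, 0 higher and 7 lower, in place of 1 higher and 0 lower. Of all 34383 regions, 2022 were then called, 79 higher and 1943 lower. In the second comparison 27 of the 136 were called, 1 higher and 26 lower, in place of 1 higher and 0 lower. Of all regions, 7410 were called there, 149 higher and 7261 lower. All changes given here are relative to the library median.

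Next to Sox5 stood regions of Fars2 and Rad51b, which did not pass for high_to_high against low_to_low. The Fars2 region, chr13:36366319-36366621, read 9.10 and 9.50 in high_to_high, 5.04, 7.53 and 6.66 in low_to_low, and 6.41, 7.95 and 7.44 in low_to_high. Its high_to_high values were the highest of the 8, with a log2 difference of 0.78 (SE 0.20, limma adjusted p = 0.0543). The Rad51b region, chr12:79692170-79692449, read 13.8 and 10.5 in high_to_high, 10.4, 7.29 and 7.30 in low_to_low, and 11.5, 7.59 and 8.88 in low_to_high, with 28.1 in naive, 36.2 in antigen-experienced and 5.36 in effector cells. Its log2 difference was 0.79 (SE 0.22, limma adjusted p = 0.0956). With the replicate number as a block the count for high_to_high against low_to_low was 3 in place of 1, with limma adjusted p of 0.00314 for Sox5, 0.0207 for Fars2 and 0.0300 for Rad51b, although the high_to_high libraries did not pair with the others by number. For YFP-high against YFP-low the Fars2 and Rad51b differences were 0.51 and 0.51, with limma adjusted p of 0.252 and 0.360. Without low_to_low 1 the Rad51b region passed for high_to_high against low_to_low (limma adjusted p = 0.0140), and without low_to_high 1 the Fars2 region did (limma adjusted p = 0.0465). The Fars2 region passed as well with the common limit of 4.32, a local fold of at least 6, a pseudocount of 5 and missing values allowed (limma adjusted p = 0.0418, 0.0395, 0.0249 and 0.0292).

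Sema6d and Wwox had regions with lower values in high_to_high, which also did not pass. The Sema6d region, chr2:124751939-124752149, was 84150 bp outside the span and had no peak in either splenocyte list. It read 9.68 and 9.67 in high_to_high, 17.1, 18.8 and 22.1 in low_to_low, 13.3, 15.4 and 16.6 in low_to_high and 18.9 in effector cells. On these values as deposited the 3 day 9 groups did not overlap, and the share of all regions with such an order is not given here. They include the median shift of -0.30 over all regions for high_to_high against low_to_low. After centring, the log2 difference of high_to_high from low_to_low at the Sema6d region was -0.63 (SE 0.17, limma adjusted p = 0.0963). The Wwox region, chr8:115160060-115160286, read 7.75 and 7.59 in high_to_high, 15.6, 15.5 and 13.7 in low_to_low, and 11.8, 15.7 and 12.7 in low_to_high, with a difference of -0.58 (SE 0.18, limma adjusted p = 0.161).

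The 2 comparisons with low_to_high as a group of its own called no region of the 10 genes. Against low_to_low, 0 of 136 passed limma's adjusted test and 7 (5.15%) had an unadjusted p under 0.05, against 5.56% of all regions, with 0.032% of all regions called. Against high_to_high, 0 of 136 passed and 13 (9.56%) had an unadjusted p under 0.05, against 5.09% of all regions, with 0% of all regions called. The lowest p values were at Sox5, Rabgap1l and Pde4d against low_to_low and at Wwox, Rabgap1l and Sema6d against high_to_high. The Rabgap1l region, chr1:160377604-160377984, read 4.93, 6.50 and 5.76 in low_to_high, 8.52 and 8.09 in high_to_high, and 7.74, 10.3 and 12.0 in low_to_low. It was lowest in low_to_high, by -0.53 against low_to_low (SE 0.18, limma adjusted p = 0.629) and -0.60 against high_to_high (SE 0.20, limma adjusted p = 0.923). For low_to_high against high_to_high, the Wwox and Sema6d regions given above differed by 0.60 and 0.47, each with a limma adjusted p of 0.923. The Pde4d region, chr13:109843041-109843313, read 21.3, 24.4 and 29.0 in low_to_high and 18.6 to 26.6 in low_to_low, which overlap (log2 difference 0.36, SE 0.14, limma adjusted p = 0.736).

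**Figure D5:**
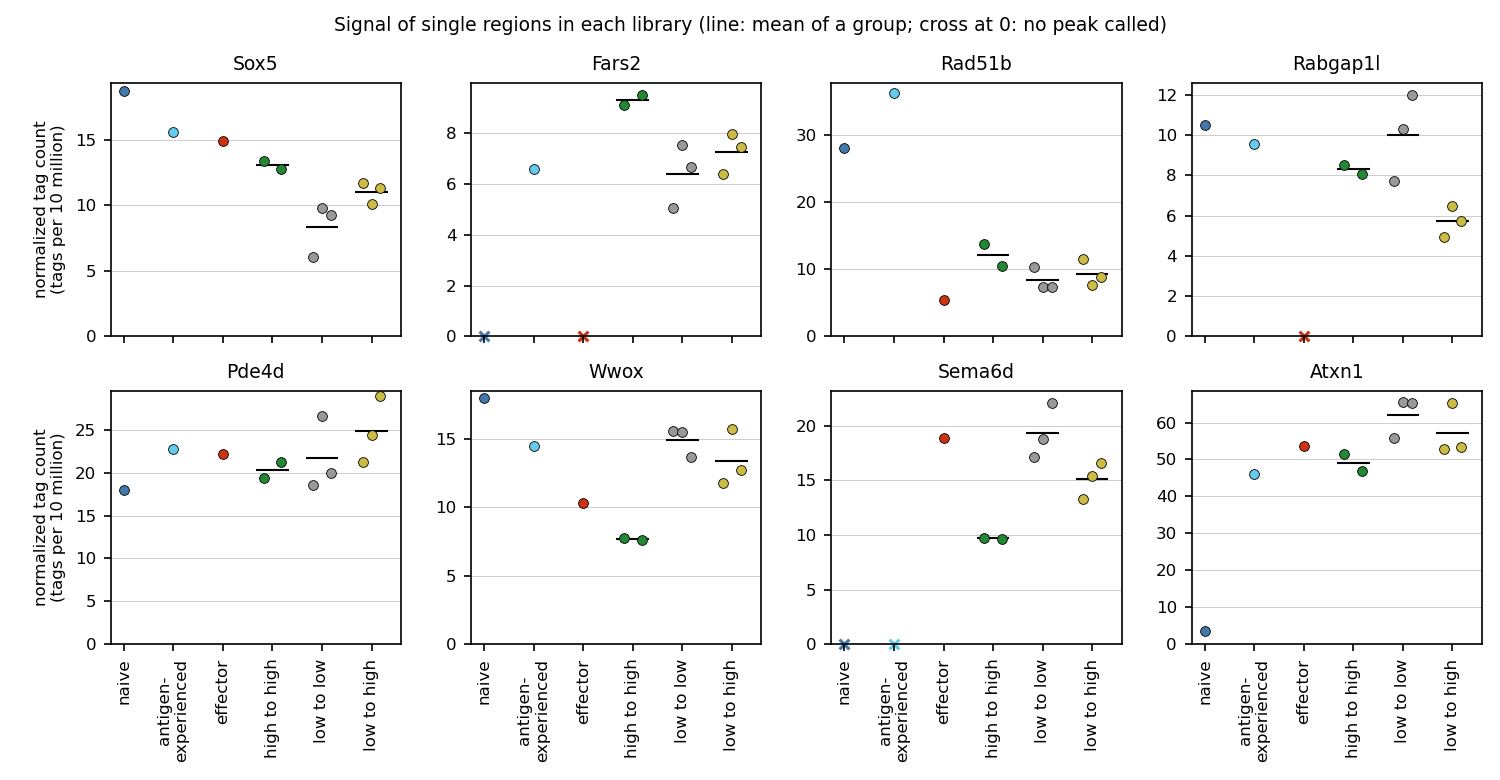
Normalized tag count (vertical axis, tags per 10 M) of 8 single regions in each library by group (horizontal axis); points are libraries, lines means of the day 9 groups, and a cross at 0 marks a library with no peak there. At Sox5 the 5 YFP-high points (10.1 to 13.4) lie above the 3 YFP-low points (6.02 to 9.80), and at Atxn1 the naive point (3.46) lies below all others.

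As a group the 136 regions were centred near all regions tested. The median log2 difference for YFP-high against YFP-low was -0.01, with 65 above 0 and 12 (8.82%) at an unadjusted p under 0.05, against 8.07% of all regions. For high_to_high against low_to_low it was -0.03, with 18 (13.2%) under 0.05 against 9.92% of all. By gene, the signal summed over a gene's tested regions passed limma's test at none of the 10 in any of the 4 comparisons. The shares of the 13717 genes tested that passed were 0.0729, 0.204, 0.00729 and 0% for YFP-high against YFP-low, high_to_high against low_to_low, low_to_high against low_to_low and low_to_high against high_to_high. In that order, 0, 1, 0 and 1 of the 10 genes had an unadjusted p under 0.05, both times Sema6d, against 6.69, 8.86, 4.4 and 5.26% of all genes tested. For YFP-high against YFP-low the 10 log2 differences ran from -0.09 at Sema6d to 0.06 at Sox5. The summed count over 6 regions of Sema6d was 93.3 and 89.1 in high_to_high and 119.8, 139.6 and 137.3 in low_to_low. On values as deposited, high_to_high lay below low_to_low without overlap at each of the 10 genes, so that order is not particular to Sema6d. The share of all genes with that order is not given here. Before centring, the median log2 difference over all 13717 genes tested was -0.32, with 7127 called lower and 19 higher. After centring the Sema6d difference was -0.19 (SE 0.09, limma adjusted p = 0.483).

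Relatives of the 10 genes by family or pathway were a list of 73 genes, 70 of them with a region. Together they held 211 effector-only regions of 738 (28.6%), against 23.4% of all regions, and 39 of the genes had at least 1. Large fragile site genes, the class of Wwox, held 73 of 161 (45.3%), with 20 at Immp2l, 18 at Auts2 and 16 at Fhit. SoxD and other Sox genes held 20 of 43, with 11 at Sox6, the relative of Sox5. Cyclic AMP phosphodiesterases held 46 of 148, with 20 at Pde4b. Phosphoinositide phosphatases and PI3K genes held 31 of 129, mitochondrial aminoacyl-tRNA synthetases 13 of 46 and Rab GAPs 13 of 63. Semaphorins and plexins held 8 of 85, LIM proteins 5 of 32 and the partners of ataxin-1 none of 15. Of the relatives' 183 tested regions, 3 rose and 0 fell in high_to_high against low_to_low, at Sox6 (log2 difference 0.75, SE 0.16, limma adjusted p = 0.0149), Pde3b (0.92, SE 0.20, limma adjusted p = 0.0156) and Immp2l (1.22, SE 0.23, limma adjusted p = 0.00586). Of all regions, 0.558% were higher in this comparison. The Sox6 call was lost without high_to_high 1, high_to_high 2 or low_to_low 3, the Immp2l call without high_to_high 1 or low_to_low 2, and the Pde3b call without high_to_high 2, low_to_low 2 or low_to_low 3. Without high_to_high 1 the relatives had 1 region higher and 2 lower. In the other 3 comparisons 0 of the 183 passed. With the replicate block 5 were higher and 1 lower in high_to_high against low_to_low, and 2 were higher in YFP-high against YFP-low.

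Markers were read in the same way. Of 10 CD8 T cell markers 9 were in the gene table, and these 9 had a region in 10 libraries, the effector library included, and 8 of 9 in low_to_high replicate 1. The summed normalized tag count of B cell markers was highest in the effector library, 384.1 against 129.0 to 313.8 in the others, and 23 of their 26 effector-only regions belonged to Ebf1, itself a gene of 390.0 kb. Cd79a and Cd79b had no region called in effector cells. Of the other B cell markers, Pax5 had 2 effector-only regions and Ms4a1 had 1. The sum of myeloid markers was lowest in the effector library, 128.1 against 164.7 to 263.2. That of CD4 and regulatory T cell markers was lowest there too, 187.5 against 395.3 to 634.9. Myeloid markers held 7 effector-only regions of 35, with 4 at Itgam, 2 at Adgre1 and 1 at Cebpa. The part of B cell markers in the effector-only counts was not tested. At day 9, 1 region of a CD4 and regulatory T cell marker passed in both comparisons that called the Sox5 region. It passed as well for low_to_high against low_to_low, where the Sox5 region did not. This marker region lay at Cd40lg (chrX:57184873-57185162), the gene of the CD40 ligand. It read 10.1 and 10.6 in high_to_high, 13.6, 12.1 and 8.4 in low_to_high, and 5.78, 7.41 and 4.94 in low_to_low, with every YFP-high library above every YFP-low one. It rose in YFP-high against YFP-low (log2 difference 0.98, SE 0.16, limma adjusted p = 0.00158), in high_to_high against low_to_low (0.99, SE 0.20, limma adjusted p = 0.00962) and in low_to_high against low_to_low (0.97, SE 0.18, limma adjusted p = 0.0265). It was 1 of the 12 tested regions of that list. Of all regions, 0.329, 0.558 and 0.032% were higher in these comparisons, in that order. Of 26 tested regions of activated effector markers, 1 rose, at Tbx21, the gene of the T-box factor T-bet. It rose in high_to_high against low_to_low (0.93, SE 0.21, limma adjusted p = 0.0251), where 0.558% of all regions were higher. Whether the Cd40lg and Tbx21 calls hold without single libraries is not reported here. No tested region of the CD8, B cell, myeloid, natural killer or erythroid lists passed in the 4 comparisons. The part of these markers in the Sox5 difference was not tested.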

How the data were processed

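ATAC-seq was measured in 11 libraries, which GEO's labels put in 6 groups. Per the file headers, the authors called peaks on each library alone with HOMER findPeaks. The thresholds were a false discovery rate of 0.001, a 4-fold excess over 10 kb of surroundings and a local p of 0.0001. Build mm10, Bowtie2, DESeq2 and HOMER 4.10 are named, without roles, per the submitters' processing notes. The deposited signal is the normalized tag count, tags in the peak per 10 M tags, per the file headers. The deposited fold over local background is a ratio and was used only as a filter. It is the authors' own value for each peak.

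Peaks on autosomes and the X chromosome were merged (checked against bedtools 2.31.1) into 111041 regions, each with its strongest peak per library. RefSeq spans of GRCm38.p6 gave a gene to 94.4% of regions, and 1 region of the 10 genes was tied with another gene. Day 9 groups were compared with limma 3.58.1 in R 4.3.3 (eBayes with trend, pseudocount 1, library medians as centre, Benjamini-Hochberg over all regions or genes tested, threshold 0.05). YFP-high against YFP-low used 2 groups, and the other 3 comparisons 1 model of 3 groups. The script was tested on simulated data. Fold changes are on the log2(value + 1) scale, which understates changes of low values. Differences between single reference libraries have no test.

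Same-numbered libraries of low_to_low and low_to_high deviated together (correlations 0.298, 0.136 and 0.161), which was read from the data and is not stated in the labels. Numbers of high_to_high did not pair with either (-0.00942 and -0.0407 for the 2 pairs with low_to_low).

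Total tags were 20.8 to 59.97 M (1e+06) a library. Values below a list's threshold are missing and no intervals were computed, so replicate spread is the only error given. The 10 genes, the family and marker lists and the tests were chosen with earlier results of these data known. Regions named are, for each gene, the strongest effector-only region and the strongest region called in all 11 libraries, every region that passed a test, and the 3 lowest p values of each comparison. Beyond this rule, the extremes of antigen-experienced against naive cells, the regions kept at day 9 and the called marker and family regions were named after their values were seen. Peak sequences were not used here. The values of single marker and family genes are reported only in part here.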

Additional observations from a re-analysis of the deposited data

Results flagged for a closer look

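Region counts of 3 genes had a library far from the other 4 YFP-high libraries, in each case high_to_high replicate 2. It had 38 regions at Lpp against 27 to 30 in the others, 36 at Pde4d against 22 to 26, and 33 at Inpp4b against 25 to 27. Of 21 values checked in the YFP-high libraries these 3 stood apart, and chance alone flags about 1 in 20 groups of this size. This library was also the deepest, at 59.97 M tags (M, 1e+06), and the part of depth was not tested. With every list held to a normalized tag count of at least 4.32, it had 214 regions of the 10 genes against 184 to 193 in the other 4 YFP-high libraries.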

How the results depend on the processing

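The 325 effector-only regions ranged from 325 to 332 when single day 9 libraries were left out, and from 221 (local fold of at least 6) to 367 (no regard to day 9) in the other settings. Member regions called for YFP-high against YFP-low were 7 without centring, where 2022 of all 34383 regions were called, and 0 to 1 without single libraries. For high_to_high against low_to_low they were 2 (Sox5 and Fars2) with the common floor, the local fold of at least 6, pseudocount 5 and missing values allowed. They were 27 without centring, where 7410 of all regions were called. With the replicate block they were 3, and without single libraries 0 to 2. Of the 10 genes, 7 and 9 were called without centring for these comparisons, against 4466 and 7146 of all 13717 genes tested. Of those called over all genes, 4448 and 7127 were lower. The summed Sox5 difference became -0.19 without centring (limma adjusted p = 0.0788). The block changed no other call among the 10 genes. Over all regions it raised the calls from 114 to 213 for YFP-high against YFP-low, from 205 to 374 for high_to_high against low_to_low, from 11 to 55 for low_to_high against low_to_low and from 0 to 4 for low_to_high against high_to_high, and over all genes from 10 to 18 for the first and from 1 to 3 for the third. Leaving out single libraries gave 16 to 203, 70 to 315, 0 to 55 and 0 to 11 regions, and 1 to 21, 14 to 103, 0 to 5 and 0 to 53 genes, in the same order of comparisons. At a local fold of at least 6, the mean number of regions was 156.6 per YFP-high and 169.7 per YFP-low library, 311 in effector cells, and 20 past 2-fold for effector against antigen-experienced cells. Inside spans only, the YFP-low mean was 195.7. In the remaining settings 1 region was called in each of these comparisons, and 0 of the 10 genes. Both comparisons with low_to_high as a group of its own called 0 regions and 0 of the 10 genes in every setting run. The summed signal was not fitted with missing values allowed, since its regions would differ between libraries. The causes were not tested. Depth limits which weak regions are listed, and the effector group has 1 library.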

Other observations

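Among 121 other long genes with at least 10 regions, the number of regions in the 11 libraries followed the summed number of the 10 genes most closely at Adgrv1 (Pearson r = 0.991), Cep112 (0.979) and Smyd3 (0.978). The points share depth and peak threshold, and the effector library is the extreme point of each, so r is a description only. Adgrv1 had 25 regions in effector cells, 9 in naive, 7 in antigen-experienced and 5 to 10 in day 9 cells. Smyd3 had 30, 12, 12 and 10 to 16, and Cep112 had 9, 2, 1 and 1 to 3.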
